A study of Mus musculus with 4 samples.

Results

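The genes described here encode the NF-kappaB transcription factors and the proteins that hold them in check, in cardiomyocytes of mouse hearts with and without pressure overload. They are the 10 genes Nfkb1, Nfkb2, Rela, Relb, Rel, Nfkbia, Nfkbib, Nfkbie, Nfkbiz and Tnfaip3, taken by symbol from the 22322 genes of the expression tables. The set was chosen by the fall of Nfkbiz in the comparison of overloaded with control hearts, so the values of Nfkbiz in that comparison are given as a description, with no test. All 10 genes were found and all 10 passed the low-count filter, Nfkbie only through its level in sham.

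RNA-seq was performed on 2 libraries of the sham group and 2 libraries of the TAC group. Transverse aortic constriction (TAC) narrows the aorta and loads the left ventricle with pressure, and sham mice went through surgery without the constriction. According to the methods, the mice were male, were operated on at the age of 2 months and were examined 14 weeks after surgery, although the cell isolation is described for mice 14 weeks of age, so the age at isolation is not certain. No strain, allele or drug treatment is named for either group. Each library was made from cardiomyocytes that had been released from 1 heart by enzyme perfusion, and no sorting of the cells is described.

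NF-kappaB factors are dimers of 5 related subunits that share a Rel homology domain, by which they bind DNA and one another. In resting cells IkappaB proteins keep the dimers in the cytoplasm, and the IkappaB kinase (IKK) complex marks those inhibitors for destruction when receptors for cytokines or microbial products are engaged. The released dimers switch on genes of inflammation and survival, among them their own inhibitors Nfkbia, Nfkbie and Tnfaip3, which closes a negative feedback loop. In the heart the pathway is known from ischaemic injury, inflammation and pressure overload.

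Total expected counts were 24237777 to 32118323 per library, and 14495 to 14949 genes had a count. Mitochondrial genes took 47.4% of the counts in TAC library 1 and 39.8% to 40.8% in the other libraries. The 10 cardiomyocyte markers were present in every library, with summed levels of 70886 to 78778 CPM, counts per 1000000 of the TMM-scaled library size. Of 12499 genes tested, 626 differed between TAC and sham (5.01%, edgeR quasi-likelihood test, Benjamini-Hochberg adjusted p under 0.05), 304 of them lower in TAC (2.43%). The split by direction changed with the scaling, as 423 of 528 called genes were lower with total-count scaling and 450 of 638 with totals that leave out mitochondrial genes. With 2 hearts a group, exact permutation of the labels for any 1 gene could not give a p below 0.333, and the tests below rest on the spread pooled over all genes.

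The 5 DNA-binding subunits differed between overloaded and control hearts by at most 0.13 on the log2 scale, with overlapping groups. Leaving aside Nfkbiz, which chose the set and was lower in both TAC libraries than in both sham libraries, 3 of the other 9 genes had such a separation, Nfkbia, Nfkbie and Tnfaip3. It was found in 3793 of the tested genes (30.3%), so a share of 3 in 9 lay near the background and is no result about these genes. None of these 9 was called by edgeR, against 5.01% of all genes. At an unadjusted p under 0.05 were Nfkbia and Tnfaip3 among the 8 left when Nfkbie, tested only through its sham level, is set aside too, beside 3438 of all tested genes (27.5%). DESeq2 called none of the 8 that it gave an adjusted p, and gave none to Nfkbie. The median log2 fold change of the 9, Nfkbie included, was -0.12, beside -0.01 over all genes tested. In these bulk samples fewer cells of a type and less RNA per cell cannot be told apart.

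**Figure D1:**
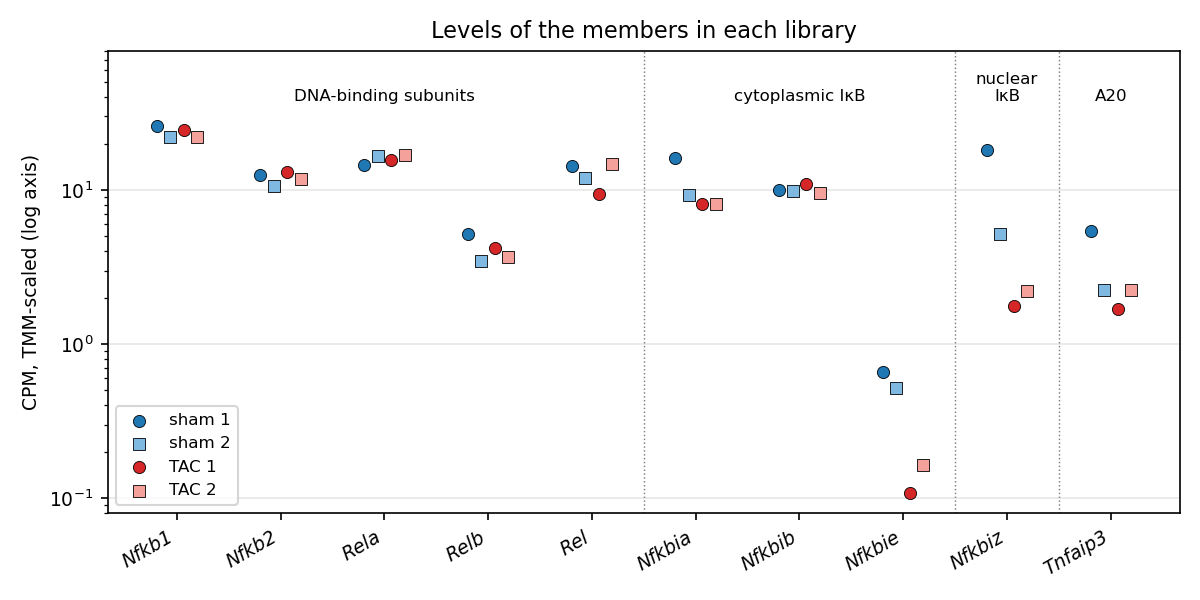
Level of each gene in each library, in TMM-scaled CPM on a log axis; blue marks are the sham libraries and red marks the TAC libraries, with circles for replicate 1 and squares for replicate 2. The blue and red marks of the 5 subunits and of Nfkbib lie among each other, whereas for Nfkbia, Nfkbie, Nfkbiz and Tnfaip3 both red marks lie below both blue ones.

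Nfkb1 (ENSMUSG00000028163, chr3:135584655-135691547, minus strand, mm10) encodes p105, the precursor of the p50 subunit. It had 25.9 and 22.0 CPM in the sham libraries and 24.5 and 21.9 CPM in the TAC libraries, from 536 to 818 counts. The groups overlapped, and the log2 fold change was -0.04 ± 0.12 (SE, edgeR adjusted p = 0.842). Nfkb2 (ENSMUSG00000025225, chr19:46304320-46312385, plus strand) encodes p100, which serves as an inhibitor until it is processed to the p52 subunit. Its levels were 12.5 and 10.6 CPM in sham and 13.02 and 11.86 CPM in TAC, again overlapping (log2 fold change 0.11 ± 0.14 SE, edgeR adjusted p = 0.635). Exons of Nfkb2 share 1196 bases with Psd and 556 bases with a non-coding gene on the opposite strand, so its counts are uncertain where reads were not assigned by strand.

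Rela, Relb and Rel encode the subunits that carry a transactivation domain. Rela (ENSMUSG00000024927, chr19:5637483-5648130, plus strand), or p65, is the partner of p50 in the dimer most often studied. Rela measured 14.6 and 16.5 CPM in sham and 15.7 and 16.9 CPM in TAC (log2 fold change 0.07 ± 0.12 SE, edgeR adjusted p = 0.722). Relb (ENSMUSG00000002983, chr7:19606217-19629438, minus strand) pairs mainly with p52 and p100, in the alternative pathway. Relb stood at 5.15 and 3.48 CPM in sham and at 4.20 and 3.68 CPM in TAC (log2 fold change -0.13 ± 0.24 SE, edgeR adjusted p = 0.750). Both TAC values lay between the sham values. Rel (ENSMUSG00000020275, chr11:23736847-23770970, minus strand) encodes c-Rel, best known from lymphocytes. Rel reached 14.2 and 12.0 CPM in sham and 9.43 and 14.7 CPM in TAC (log2 fold change -0.12 ± 0.21 SE, edgeR adjusted p = 0.738). It was the 1 subunit that varied more within TAC than within sham, since TAC library 1 held 0.641 times the level of TAC library 2 (exact 95% counting interval 0.544 to 0.753).

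Across the 5 subunits the log2 fold changes ran from -0.13 to 0.11 and the adjusted p from 0.635 to 0.842. The direction of these small differences changed with the scaling. Nfkb2 and Rela, higher in TAC after TMM scaling, were lower after scaling by total counts (-0.09 and -0.11), a scaling that moved the median of all genes to -0.20.

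The inhibitors of the cytoplasm are Nfkbia, Nfkbib and Nfkbie, which encode IkappaB alpha, beta and epsilon. To show the sequence features beside the levels, their promoters were read from RefSeq gene starts on GRCm38.p6, from 250 bases before to 50 bases after each start, together with that of Tnfaip3. Capitals mark matches to the kappaB consensus, the 10-base site bound by NF-kappaB dimers, written as 3 G, a purine, any base, A or T, 2 pyrimidines and 2 C and searched on both strands. The promoters of Nfkbia (chr12:55492598-55492897, minus strand), Nfkbie (chr17:45555450-45555749, plus strand) and Tnfaip3 (chr10:19015361-19015660, minus strand) are shown because these genes lay lower in TAC, and that of Nfkbib (chr7:28766595-28766894, minus strand) for contrast.
Nfkbia: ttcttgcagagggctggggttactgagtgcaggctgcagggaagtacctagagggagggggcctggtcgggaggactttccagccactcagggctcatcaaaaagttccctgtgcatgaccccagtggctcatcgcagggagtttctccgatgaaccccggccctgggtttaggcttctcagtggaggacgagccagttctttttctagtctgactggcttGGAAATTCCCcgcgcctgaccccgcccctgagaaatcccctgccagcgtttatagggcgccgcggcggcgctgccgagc
Nfkbie: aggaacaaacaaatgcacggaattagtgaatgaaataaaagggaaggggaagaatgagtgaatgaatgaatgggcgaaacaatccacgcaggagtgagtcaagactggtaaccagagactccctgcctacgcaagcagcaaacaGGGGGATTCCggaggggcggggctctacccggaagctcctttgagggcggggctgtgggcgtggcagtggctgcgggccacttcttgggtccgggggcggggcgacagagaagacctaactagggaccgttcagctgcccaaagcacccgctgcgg
Tnfaip3: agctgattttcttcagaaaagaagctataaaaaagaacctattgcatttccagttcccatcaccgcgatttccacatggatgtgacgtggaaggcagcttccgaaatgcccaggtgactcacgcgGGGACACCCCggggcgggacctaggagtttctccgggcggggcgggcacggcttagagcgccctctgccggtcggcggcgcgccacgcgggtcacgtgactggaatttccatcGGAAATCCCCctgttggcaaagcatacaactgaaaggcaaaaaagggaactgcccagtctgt
Nfkbib: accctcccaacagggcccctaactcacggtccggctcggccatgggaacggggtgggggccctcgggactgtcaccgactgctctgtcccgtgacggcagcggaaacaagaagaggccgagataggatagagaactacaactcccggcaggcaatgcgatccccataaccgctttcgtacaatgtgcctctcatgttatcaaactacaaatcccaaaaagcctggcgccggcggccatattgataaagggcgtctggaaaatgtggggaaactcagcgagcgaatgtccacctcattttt

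The match in Nfkbia, GGAAATTCCC on the gene's strand, lay at -29 to -20 from the start, that in Nfkbie, GGGGGATTCC, at -106 to -97, and those in Tnfaip3, GGGACACCCC and GGAAATCCCC, at -125 to -116 and at -12 to -3. No such letters were found in the window of Nfkbib. The table held 10 promoters for 7 of the 10 genes, and 7 of the 10 promoters, of 5 genes, held the consensus. Nfkb2 and Rel did too, Rela did not, and a second promoter of Tnfaip3 (chr10:19011914-19012213) had neither this match nor the AP-1 match given next. Of all 32851 promoters in the table, 1480 (4.51%) held the kappaB consensus. The 7 promoters are not independent, since those of Nfkb2 at chr19:46305445-46305744 and chr19:46305680-46305979 overlap and share the match GGGACTTTCC. The AP-1 motif TGANTCA, which is bound by Fos and Jun proteins, was found in promoters of Nfkb2, Nfkbie and Tnfaip3, and in 2565 promoters of the table (7.81%). The kappaB consensus was therefore present in genes whose groups overlapped, Nfkb2 and Rel, as well as in genes whose groups did not. A match describes the sequence and is not a measured binding site.

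Nfkbia (ENSMUSG00000021025, chr12:55489410-55492647, minus strand) is rapidly resynthesised after NF-kappaB activation. It had 16.1 and 9.21 CPM in sham and 8.07 and 8.10 CPM in TAC. The TAC libraries were almost equal and lay below both sham libraries, but sham library 2 was far closer to them than to sham library 1. The level in sham library 1 was 1.75 times that in sham library 2 (exact 95% counting interval 1.50 to 2.03), and that in sham library 2 was 1.14 times the higher TAC level (0.943 to 1.37). Its log2 fold change was -0.65 ± 0.25 (SE) and did not pass the threshold (edgeR adjusted p = 0.144). Without sham library 1 it was -0.19, and without sham library 2 it was -0.99. With no low-count filter edgeR called Nfkbia (log2 fold change -0.65, edgeR adjusted p = 0.0347).

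Nfkbib (ENSMUSG00000030595, chr7:28758251-28767512, minus strand) holds dimers more persistently and is not a classical feedback gene. It was the steadiest of the inhibitors, with 9.92 and 9.80 CPM in sham and 10.9 and 9.61 CPM in TAC (log2 fold change 0.06 ± 0.13 SE, edgeR adjusted p = 0.816). Its exons share 314 bases with Ccer2 and 42 bases with Sirt2 on the opposite strand. Nfkbie (ENSMUSG00000023947, chr17:45555703-45563169, plus strand), the inhibitor that acts with a delay, was scarce. It had 0.66 and 0.52 CPM in sham and 0.11 and 0.16 CPM in TAC. These levels rest on 21 and 15 counts in sham and 3 and 4 counts in TAC. The groups did not overlap. With the counts summed over the libraries of each group, the sham to TAC ratio was 4.45 (exact 95% counting interval 1.96 to 11.9). That interval leaves out the spread between hearts, and nothing is read from it, for the reason given next. The log2 fold change was -2.11 ± 0.59 (SE) and was not called. Since neither TAC library reached the minimum of the low-count filter, Nfkbie was tested only because of its higher level in sham, which fixes the direction, and nothing is read from its test.

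Nfkbiz (ENSMUSG00000035356, chr16:55811375-55838899, minus strand, 15 exons) encodes IkappaB zeta, an atypical family member of the nucleus that works as a coactivator on a subset of NF-kappaB target genes and is itself induced by inflammatory signals. It had 18.2 and 5.18 CPM in sham and 1.76 and 2.21 CPM in TAC, from 577, 149, 49 and 54 counts. Sham library 1 stood far above the other 3, sham library 2 lay between, and the TAC libraries lay together at the bottom. The log2 fold change that chose the set was -2.57 ± 0.56 (SE), and 10 of the 12499 genes tested had a lower one. The level in sham library 1 was 3.52 times that in sham library 2 (exact 95% counting interval 2.94 to 4.25), and sham library 2 in turn held 2.34 times the higher TAC level (1.71 to 3.26). The TAC libraries differed by less than counting error (ratio 0.796, interval 0.529 to 1.19). The value was -1.39 without sham library 1 and -3.20 without sham library 2, the extremes over 12 alternatives.

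Tnfaip3 (ENSMUSG00000019850, chr10:19000910-19015657, minus strand) encodes A20, an enzyme that edits ubiquitin chains on signalling proteins upstream of IKK and so ends the signal. It had 5.44 and 2.26 CPM in sham and 1.69 and 2.25 CPM in TAC. Sham library 2 was barely above TAC library 2 (ratio 1.00, exact 95% counting interval 0.690 to 1.47), so the separation of the groups lay within counting error. Sham library 1 had 2.41 times the level of sham library 2 (1.80 to 3.25). The log2 fold change was -0.98 ± 0.42 (SE, edgeR adjusted p = 0.180). It was -0.20 without sham library 1 and -1.46 without sham library 2, with an adjusted p of 0.0164 in a range of 0.0164 to 0.840 over the alternatives.

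**Figure D2:**
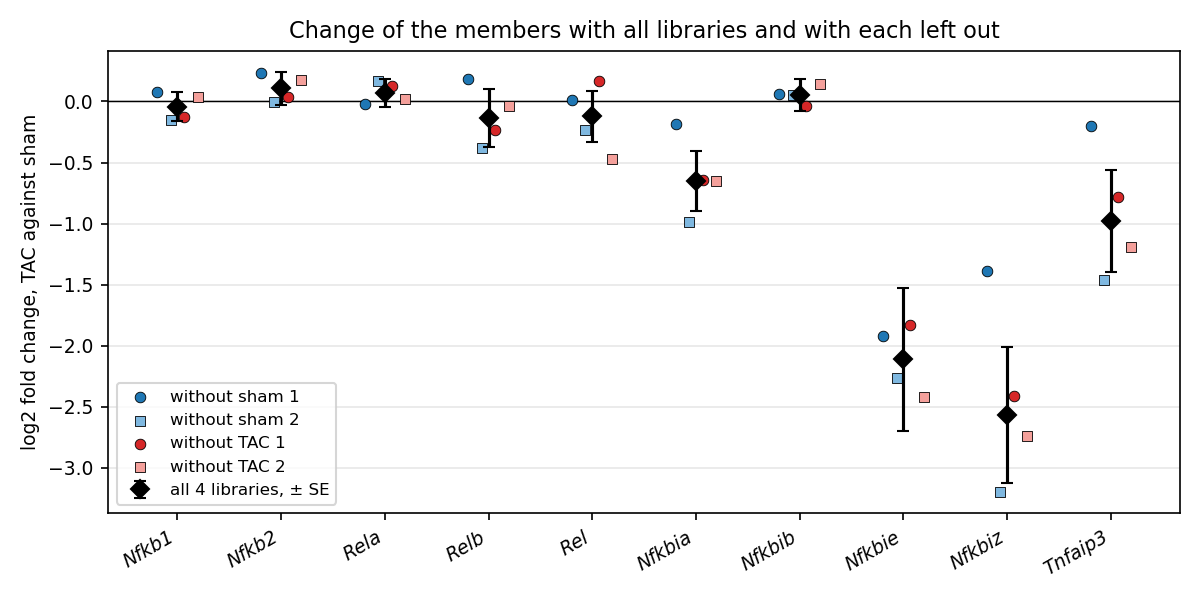
Log2 fold change of each gene in TAC against sham from edgeR, with bars of 1 standard error, and coloured marks for the values obtained when each of the 4 libraries was left out in turn. The values of the subunits and Nfkbib lie from -0.47 to 0.24, and for Nfkbia, Nfkbiz and Tnfaip3 the value without sham library 1 lies nearer to 0 than the value without sham library 2.

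The sham hearts differed from each other in several of these genes. Besides Nfkbiz, 8 of the other 9 were higher in sham library 1 than in sham library 2, Rela being the exception, and so were 48.9% of all genes tested. The median log2 ratio of sham library 1 over sham library 2 was 0.25 for the 9 genes, beside -0.005 for all genes tested, 0.70 for the immediate early genes and 0.91 for the macrophage and leukocyte markers described below. It was 1.81 for Nfkbiz, and 99.6% of tested genes had a smaller ratio in either direction. For Tnfaip3 the ratio was 1.25 (98.5% of genes smaller) and for Nfkbia 0.80 (95.3%). Relb, with 0.56, stood above 90.7% of genes, whereas Nfkbib, with 0.02, stood above 7.30%. Between the TAC libraries the same ratio was -0.32 for Nfkbiz, -0.41 for Tnfaip3 and near 0 for Nfkbia.

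Levels of different genes were compared on the length-corrected scale of the deposited FPKM. By the mean over the 4 libraries Nfkb1 stood at the top with 8.56 FPKM, followed by Nfkbib with 8.02, Nfkbia with 6.72, Rela with 6.04 and Nfkb2 with 3.88 FPKM. Below them came Relb with 2.03, Nfkbiz with 2.01, Rel with 1.71, Tnfaip3 with 0.68 and Nfkbie with 0.16 FPKM. The ranges over the 4 libraries overlapped between neighbours in this order, except between Rela and Nfkb2, between Nfkb2 and Relb and between Tnfaip3 and Nfkbie. Nfkb1 led in the TAC libraries only, since Nfkbia stood above it in sham library 1 and Nfkbib, with 8.13 against 7.64 FPKM, in sham library 2. Nfkbiz was above Nfkb2 in sham library 1 with 5.51 FPKM and below Rel in the other libraries with 1.48, 0.42 and 0.61 FPKM. Nfkbia ranked at the top in sham library 1 with 11.18 FPKM and below Nfkb1, Nfkbib and Rela elsewhere, with 6.07, 4.44 and 5.18 FPKM.

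**Figure D3:**
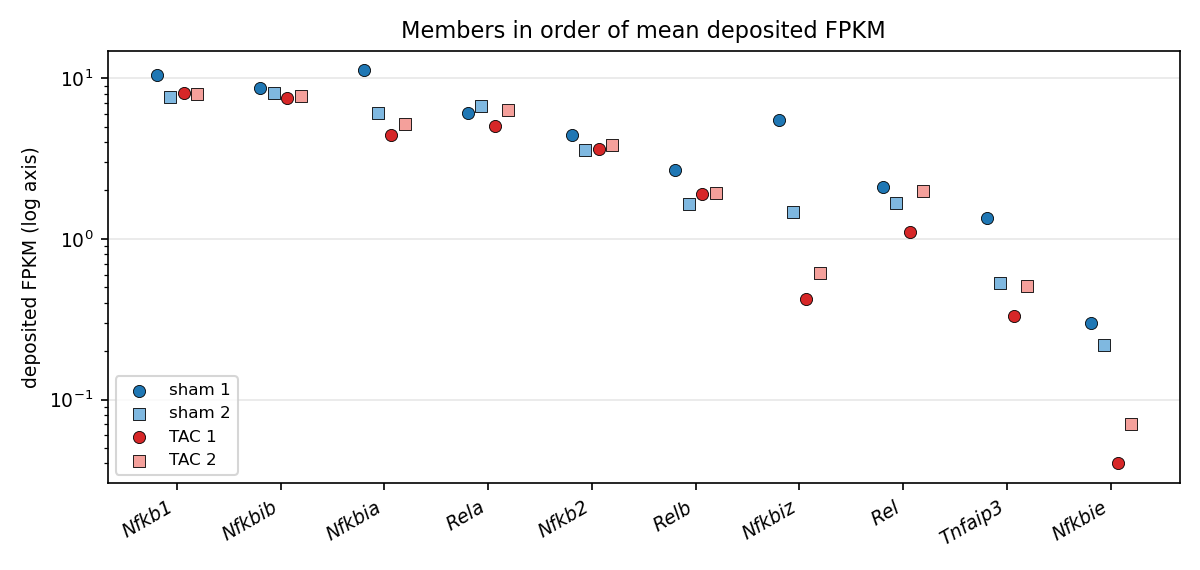
Deposited FPKM of each gene in each library on a log axis, ordered by the mean over the 4 libraries, from Nfkb1 with 8.56 to Nfkbie with 0.16 FPKM. The marks of Nfkbiz span 0.42 to 5.51 FPKM, and those of Nfkbib only 7.57 to 8.64 FPKM.

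Summed by role, the subunits reached 25.84 and 21.23 FPKM in sham and 19.81 and 22.02 FPKM in TAC, while Nfkbia, Nfkbib and Nfkbie together reached 20.12 and 14.42 FPKM in sham and 12.05 and 12.98 FPKM in TAC. The ratio of these cytoplasmic inhibitors to the subunits was 0.779 and 0.679 in sham and 0.608 and 0.589 in TAC. The ratio was thus lower in both TAC libraries, and no test was made of it. Such a separation was found in 30.3% of single genes tested, in CPM. Nfkbia made up 55.6% and 42.1% of the inhibitor sum in sham and 36.8% and 39.9% in TAC. These are levels of messenger RNA and say nothing of how much protein was bound.

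The wider pathway was read from 5 lists of 55 further genes, of which 47 were tested and 3 passed the test, a share near the 5.01% of all genes. Otulin and Tnip1 rose, and Cxcl1, called lower, was tested only with the help of its sham level. The IKK subunits and upstream kinases, which carry the signal to the inhibitors, had 12 of 13 genes tested, none called by edgeR or by DESeq2 and none at an unadjusted p under 0.05 (27.5% of all genes), with a median log2 fold change of -0.04. Irak1, a kinase of Toll-like and interleukin receptors, was the most abundant of them at a mean of 14.9 FPKM, with a log2 fold change of -0.02. Of the adaptors and ubiquitin ligases that build the signalling platforms all 11 were tested, none was called by edgeR or DESeq2 and 1 was at an unadjusted p under 0.05, again beside 27.5% of all genes (median 0.02). Bcl3, another nuclear IkappaB, was at -0.37 on that scale (edgeR adjusted p = 0.564), and Nfkbid did not pass the low-count filter.

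Among 9 other negative regulators 2 were called, both higher, beside 2.58% of all genes called higher, and the median log2 fold change was 0.04. Otulin, a deubiquitinase that removes linear ubiquitin chains from NF-kappaB signalling complexes, had 12.4 and 11.6 CPM in sham and 25.6 and 22.0 CPM in TAC. Both TAC libraries stood well above both sham libraries (log2 fold change 0.99 ± 0.12 SE, edgeR adjusted p = 0.00780), and all 12 alternatives kept the call, at 0.77 to 1.10. Tnip1, which encodes the A20-binding protein ABIN-1, had 23.8 and 25.9 CPM in sham and 36.8 and 32.1 CPM in TAC (log2 fold change 0.47 ± 0.10 SE, edgeR adjusted p = 0.0474). The call of Tnip1 was lost in 7 of 12 alternatives, among them those without sham library 1 (0.41, adjusted p = 0.128) and without TAC library 1 (0.37, adjusted p = 0.156), in a range of 0.00790 to 0.308.

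Of 20 genes known to be switched on by NF-kappaB 14 were tested, 12 had a value below 0 (50.9% of all genes) and 1 passed the test (5.01% of all genes), Cxcl1. DESeq2 called 3 (Cxcl1, Cxcl2 and Cd83), where it called 7.40% of all genes. With no low-count filter edgeR called 7 of the targets and 10.5% of all genes. Of these 7 only Cd83 and Gadd45b would have passed the filter with the TAC libraries alone. The counts of calls are therefore a description and are not read as a result about the targets. The filter bears on this list, since 6 of the 14, Cxcl1 among them, reached its minimum in too few TAC libraries and were tested only with the help of their level in sham. The median log2 fold change was -1.07 over the 14 and -0.36 over the 8 that would have passed with the TAC libraries alone, 4 of which had both TAC libraries below both sham libraries, beside 30.3% of all tested genes. Cxcl1, a chemokine that draws neutrophils, had 5.53 and 2.85 CPM in sham and 0.29 and 0.74 CPM in TAC. The difference was -3.06 ± 0.49 (SE) on the log2 scale, and -3.85 (without TAC library 2) to -1.88 over 12 alternatives, but only 1 TAC library reached the filter's minimum, so nothing is read from its test. Sod2, the mitochondrial superoxide dismutase and the most abundant of these targets at a mean of 78.7 FPKM, had a log2 fold change of 0.09. Of the 14 tested targets 11 were higher in sham library 1 than in sham library 2, beside 48.9% of all genes tested. The median log2 ratio was 0.86 over the 14. Nothing is read from these values, since 6 of the 14 were tested only with the help of their level in sham.

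**Figure D4:**
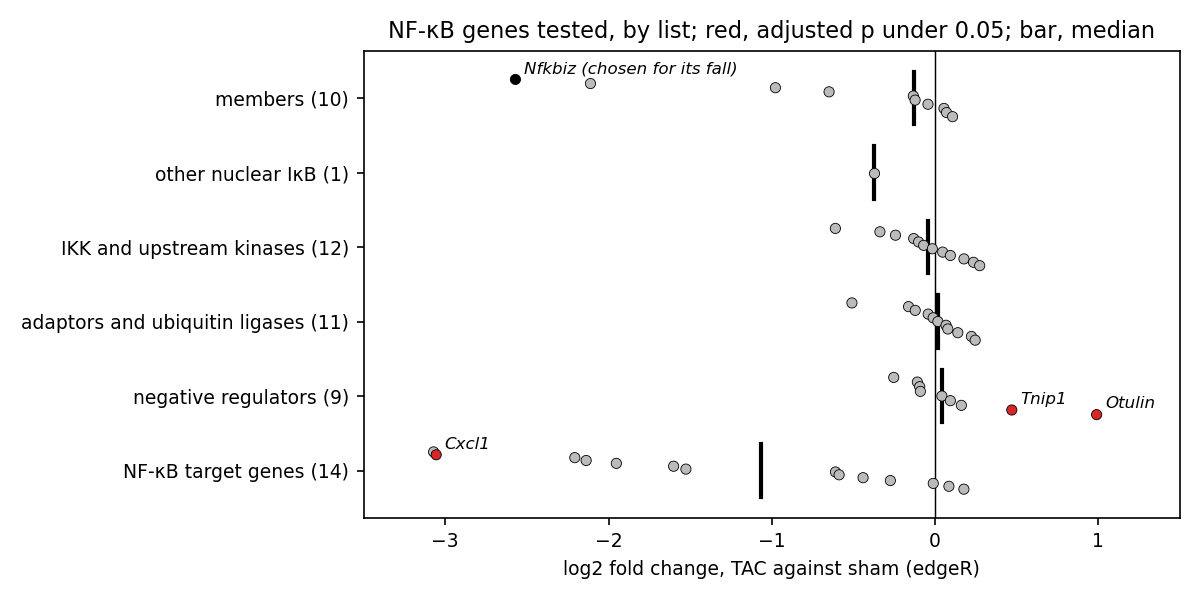
Log2 fold change in TAC against sham for each tested gene of the set and of the 5 wider lists, with a black bar at each list's median; red points passed an adjusted p of 0.05, and the black point is Nfkbiz. The medians of the kinases, adaptors and negative regulators lie within 0.05 of 0, and that of the target genes, 6 of which were tested with the help of their sham level, lies at -1.07.

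Markers of other heart cells and of acute stimulation were read as well, and their part in the values above was not tested. The 10 macrophage and leukocyte markers summed to 120 and 61.7 CPM in sham and to 32.9 and 60.4 CPM in TAC. None of them was at 0 in all libraries, all 10 had their highest value in sham library 1 (27.1% of all genes tested), and all 10 had a log2 fold change below 0 (median -0.92), with 0 called by edgeR or DESeq2 and 5 at an unadjusted p under 0.05 (27.5% of all genes). With no low-count filter edgeR called 5 of them and 10.5% of all genes, and with the crossed pairing described below 6 of them and 17% of all genes. The 10 endothelial markers summed to 564 and 457 CPM in sham and 270 and 377 CPM in TAC (3 called, all lower, beside 2.43% of all genes, median -0.62), and the 10 fibroblast markers to 288 and 205 CPM in sham and 127 and 167 CPM in TAC (3 called, all lower, median -0.83, with 1 of the 10 tested only with the help of its sham level). Of 10 mural cell markers 2 were called, both lower, again beside 2.43% of all genes (median -0.78), and their sum of 2252 to 2584 CPM was mostly Des, which cardiomyocytes also express. Of the 10 cardiomyocyte markers none was called by edgeR, 5 were called by DESeq2 (7.40% of all genes), 5 were at an unadjusted p under 0.05 (27.5% of all genes), and their median was 0.04. With no low-count filter edgeR called 5 of them, beside 10.5% of all genes, and with the crossed pairing 5, beside 17% of all genes.

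The 20 immediate early genes, which are transcribed within minutes of a stimulus, summed to 1250 and 756 CPM in sham and to 378 and 343 CPM in TAC. Of them 10 were called, all lower in TAC (2.43% of all genes), and 19 had their highest value in sham library 1 (27.1% of all genes). The genes whose levels over the 4 libraries were most like those of Nfkbiz came partly from this list. By the root mean square difference of the centred log2(CPM + 1) over the 4 libraries, the nearest of 11170 genes compared was Fosb, a Fos family transcription factor, at 0.10. It had 12.9 and 3.82 CPM in sham and 1.43 and 1.51 CPM in TAC. After it came Cxcl2, a chemokine close to Cxcl1, at 0.24, Zfp36, an mRNA decay factor, at 0.27, Ier2, an immediate early gene, at 0.32, and Cxcl1 at 0.33. With library sizes scaled by total counts the same 5 genes were nearest. With 4 libraries this likeness is a description, and the genes share the high sham library 1. Adding 1 to the CPM shrinks differences at low levels, such as those of Cxcl1 and Cxcl2 in TAC, and no other pseudocount was tried.

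**Figure D5:**
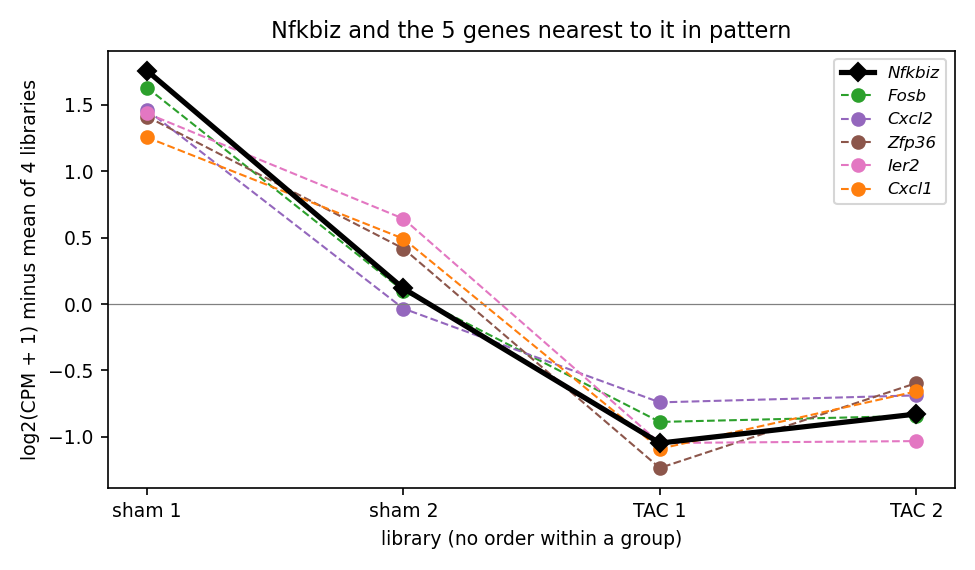
Centred log2(CPM + 1) of Nfkbiz and of the 5 genes nearest to it in the 4 libraries; the lines only join the values of 1 gene. Each gene is highest in sham library 1 and lowest in the TAC libraries, and Nfkbiz runs from 1.76 in sham library 1 to -1.05 in TAC library 1.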

How the data were processed

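Expected counts and FPKM per gene were deposited by the authors for each of the 4 libraries, made from reads aligned to mm10, and the submitters' processing notes name Bowtie2 2.2.8 and StringTie 1.3.1. Neither the counting program nor its strand setting is given in the sources used here. The deposited FPKM (fragments scaled by gene length and library total) depend on the authors' gene lengths and totals. The deposited expected counts were rounded to whole numbers (1432 to 1519 genes per library had a non-whole value) and tested with edgeR 4.0.16 in R 4.3.3. Steps were filterByExpr, TMM scaling, the quasi-likelihood test on TAC against sham and Benjamini-Hochberg adjustment over 12499 genes, with SE taken as the log2 fold change over the root of F. Alternatives used DESeq2 1.42.0, limma 3.58.1 on log2(FPKM + 1) and log2(FPKM + 0.1), other scalings, no filter, a replicate block and leaving out each library. The edgeR script was tested on simulated data.

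The genes of the set, the pathway lists and the marker lists were chosen with earlier results of these data known. Named genes were the set, called genes of the pathway lists, the most abundant gene of a list, and the 5 genes nearest to Nfkbiz; Bcl3, Nfkbid and the overlapping genes were named besides. Samples of a group are separate hearts by the methods. The files of replicates differed beyond sampling noise (chi-square per degree of freedom 8.08 for sham and 26.7 for TAC). Counting intervals are exact 95% Poisson or binomial intervals and cover counting error only, since reads without molecular identifiers are not independent molecules. Gene coordinates are from GENCODE models on GRCm38, which is mm10.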

Additional observations from a re-analysis of the deposited data

How the results depend on the processing

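With 2 hearts a group, single libraries and the scaling decided several values, and low counts limit Nfkbie. The 626 genes called became 1676 with no low-count filter, 214 and 195 with limma on log2(FPKM + 1) and log2(FPKM + 0.1), and 301 (without TAC library 1) to 1336 (without TAC library 2) when a library was left out. Of the 10 genes of the set the call of 1, Nfkbiz, belongs to the choice of the set, and the count was 0 with totals that leave out mitochondrial genes and with limma at either pseudocount, 2 with no low-count filter, and 0 (without TAC library 1) to 3 (without sham library 2) when a library was left out. Of the wider pathway 3 were called, 5 with DESeq2, 9 with no filter, and 2 to 10 (without sham library 2) when a library was left out. Same-numbered samples did not deviate together (correlation -0.271), and with 2 pairs the numbers cannot be shown to pair the hearts. The replicate block gave 566 genes, 1 of the set and 3 of the wider pathway, and the crossed pairing, chosen after seeing the data, 2131, 2 and 10.

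Nfkbia and Tnfaip3 stayed below 0 in 12 of 12 alternatives. Nfkbie was -0.26 on log2(FPKM + 1), a scale that shrinks low levels. Small values changed sign, and the cause was not tested. With total-count scaling Nfkb2 was -0.088, Rela -0.11 and Nfkbib -0.14, and with totals without mitochondrial genes Rela was -0.027 and Nfkbib -0.046. With limma on log2(FPKM + 1) Nfkb2 was -0.070, Rela -0.15 and Nfkbib -0.12, and on log2(FPKM + 0.1) they were -0.085, -0.18 and -0.13. Leaving out a library gave -0.15 to 0.080 for Nfkb1, -0.0025 to 0.24 for Nfkb2, -0.018 to 0.17 for Rela, -0.38 to 0.18 for Relb, -0.47 to 0.17 for Rel and -0.037 to 0.14 for Nfkbib.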
